A study of Mus musculus with 3 samples.

Results

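The S100 genes encode small calcium-binding proteins, and 9 of them were followed here in RNA sequencing libraries of mouse microglia, the resident macrophages of the brain: S100a1, S100a4, S100a6, S100a8, S100a9, S100a10, S100a11, S100a13 and S100b. They were chosen by gene symbol, with earlier results of these data known, and are 9 of 24411 genes in the deposited tables. The tables held another 8 genes of the family, of which S100a16 and S100a5 were detected. All libraries came from 1 group, replicates 1 to 3. The mice were C57BL/6J, labelled as 6 to 8 weeks old, and carried Mir137 flanked by loxP sites on both alleles together with Tmem119-CreERT2, a recombinase that tamoxifen activates in cells expressing the microglial gene Tmem119. By the design text, tamoxifen was injected daily for 7 days when the mice were 7 to 8 weeks old. The lower label age of 6 weeks precedes this course, and the labels and design text do not resolve the conflict. The labels give the microglia of this genotype (cKO) a Pu.1 inhibitor as their treatment. Pu.1, the product of Spi1, is a transcription factor on which macrophage identity depends. No untreated knockout cells or Mir137-intact controls were analysed here. The values are thus levels under deletion and inhibitor combined, and neither can be estimated separately. Which inhibitor was used, and at what dose and by what route, is not stated in the labels or design text. The design text names 4 mice without tying replicates to animals. SDs therefore describe the spread among these 3 libraries alone, which could be technical. The p-values likewise hold for these libraries only and do not measure that spread.

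S100 proteins carry EF-hand loops, which change shape on binding calcium and expose a surface that grips target proteins, and most members work as dimers. S100a8 and S100a9 pair to form calprotectin, stored in large amounts by neutrophils and released as a danger signal that Toll-like receptor 4 can recognise. S100a10, which has lost calcium binding, and S100a11 attach to annexins at membranes, while S100a4 and S100a6 act on the cytoskeleton and on cell movement. S100b is abundant in astrocytes of the brain.

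The libraries held 15710750 to 17180404 estimated counts. A gene is called detected here when all 3 libraries reach an FPKM of 1 (fragments per kb of effective transcript length, scaled by library size). All 12 microglial marker genes were detected, among them Csf1r at 2370 ± 54.3 and P2ry12 at 1608 ± 7.79 FPKM, with Slc2a5 lowest at 93.4 ± 0.10 (mean ± SD, n = 3, as for all values in this form). The deleted gene, Mir137, had 0 counts in each library, but of 1169 microRNA genes in the tables only 6 had any count, so this checks nothing. The labels name no batch or sequencing date.

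Of the members, 8 lie on mouse chromosome 3 and S100b lies on chromosome 10 (GRCm38, GENCODE M21). S100a1 (90511034 to 90514392) and S100a13 (90514435 to 90524581) stand head to head with 42 bp between them. S100a4 (90603771 to 90606045) and S100a6 (90612882 to 90624181) follow on the plus strand. S100a8 (90668978 to 90670035) and S100a9 (90692632 to 90695721) stand tail to tail, 22596 bp apart, and close a stretch of 184.7 kb that starts at S100a1. S100a11 (93520488 to 93526287) and S100a10 (93555080 to 93564643) lie 2824.8 kb further on. S100b spans 76253853 to 76261159. Exons of S100a4 share 302 nt with Gm42674, a gene model on the same strand that is not in the tables, so the S100a4 value may hold reads of that locus. S100b overlaps Dip2a on the opposite strand without sharing annotated exon sequence. The 27 counts of the 9 members were all whole numbers.

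The start regions of the 3 most abundant members are shown because the inhibitor is named for a DNA-binding factor. Each is the 300 bases around the RefSeq start site (GRCm38.p6), 250 before and 50 after it, read 5′ to 3′ on the strand of the gene. Capitals mark GAGGAA, a core of Pu.1 binding sites, TATAAA, the TATA box, and TTGCNNAA, a C/EBP core, searched on both strands, with overlapping matches merged. They come from chr3:90668821-90669120 (plus strand), chr3:90695672-90695971 (minus strand) and chr3:93520246-93520545 (plus strand).
S100a8: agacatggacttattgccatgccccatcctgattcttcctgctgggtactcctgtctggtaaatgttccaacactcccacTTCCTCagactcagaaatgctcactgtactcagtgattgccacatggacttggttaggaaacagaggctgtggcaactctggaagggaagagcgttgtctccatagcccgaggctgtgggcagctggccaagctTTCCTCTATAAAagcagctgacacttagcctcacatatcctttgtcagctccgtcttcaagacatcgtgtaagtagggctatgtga
S100a9: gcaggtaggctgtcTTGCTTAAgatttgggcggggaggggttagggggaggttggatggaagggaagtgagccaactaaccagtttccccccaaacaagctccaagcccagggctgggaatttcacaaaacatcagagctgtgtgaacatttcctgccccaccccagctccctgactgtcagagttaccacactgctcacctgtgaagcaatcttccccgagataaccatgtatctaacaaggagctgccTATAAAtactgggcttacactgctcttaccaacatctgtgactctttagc
S100a11: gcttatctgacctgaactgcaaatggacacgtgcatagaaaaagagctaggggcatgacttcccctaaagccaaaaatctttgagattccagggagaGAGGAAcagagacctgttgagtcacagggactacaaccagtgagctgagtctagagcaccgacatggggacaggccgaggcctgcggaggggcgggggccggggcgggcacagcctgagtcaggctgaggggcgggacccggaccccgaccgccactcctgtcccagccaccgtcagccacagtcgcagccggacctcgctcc

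A start region was found for 8 of the 9 members, the missing one being S100a10. GAGGAA occurred in 3 of these 8, S100a4, S100a8 and S100a11, against 28.3% of all 32851 such windows. In S100a8 it occurred on the reverse strand at positions -170 and -36 from the start site, the latter directly before TATAAA at -30. TATAAA occurred in S100a4, S100a8 and S100a9, against 13.6% of windows, and in S100a9 it began at position 1, on the annotated start itself. TTGCNNAA occurred only in the S100a9 window among these 8, at -236, against 10.8% of windows. A match is a description of letters and not a binding site. The windows of S100a1 and S100a13 share 204 bases and held none of the 3 motifs. The deleted microRNA is shown with its seed, bases 2 to 8, in capitals, since 3′ UTR matches to the seed are where such a microRNA pairs with its targets. It lies at chr3:118433901-118433923 on the plus strand.
miR-137-3p: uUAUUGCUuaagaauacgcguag

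No annotated 3′ UTR of the 9 members contained the seed match AGCAATA (0 of 9). It was present in 10.6% of 19518 genes with a 3′ UTR, and in 3.57% of the 10319 whose 3′ UTR was no longer than the longest among the members, that of S100b at 1091 nt. The other members had shorter 3′ UTRs, from 68 nt for S100a8 to 294 nt for S100a1. Neither share is matched to their length, so the absence of matches says little about these genes.

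All 9 members were detected, as were 47.8% of all genes tabulated. The members were chosen with earlier results of these data known, so this count and their median level may follow from that choice. Of the other 8 family genes measured, 2 were detected and 5 had no counts in any library. S100a8 stood 2092 ± 342 times above S100b in FPKM, 519 ± 86.4 times per kb of annotated exon and 170 ± 28.3 times in CPM (counts scaled by library size alone, with no division by length). S100a8 and S100a9 stood far above the rest, S100a11 was intermediate, S100a1, S100a6, S100a10, S100a4 and S100a13 lay close together, and S100b was lowest. The 9 members took 0.213 ± 0.012% of all counts, and S100a8 with S100a9 made up 92.2 ± 0.52% of that. The median of log2(FPKM + 1) over the members was 5.68 ± 0.24, against 0.95 ± 0.02 over all genes. In CPM the same medians were 4.29 and 1.62.

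S100a8 was at 8435, 9453 and 8512 FPKM in replicates 1, 2 and 3, and its partner S100a9 at 3950, 4297 and 3920 FPKM. The lowest library of S100a8 lay above the highest of S100a9, and replicate 2 was highest for each. S100a8 exceeded S100a9 in FPKM by 2.14, 2.20 and 2.17 times in the 3 libraries, a mean of 2.17 ± 0.032 and a log2 ratio of 1.12 ± 0.02. The read counts gave another picture: S100a8 had 16361, 16448 and 15718 counts and S100a9 had 16357, 16103 and 15450. In CPM the ratio was therefore 1.0002, 1.02 and 1.02, a mean of 1.01 ± 0.011. The difference between the units comes from the effective length, the number of positions at which a fragment fits in the transcript, which was 112.9 nt for S100a8 and 241 nt for S100a9 in replicate 1.

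Annotated lengths differed much less, with 486 nt of merged exons of protein-coding transcripts for S100a8 and 522 nt for S100a9 in GENCODE M21. Per kb of that length the ratio was 1.09 ± 0.012. The RefSeq start site of S100a8 lies 93 nt downstream of the GENCODE start, while for S100a9 the 2 coincide, so the S100a8 model that a table is built on bears on its level, and which annotation the authors used is not given in the sources used here. S100a8 was higher in 3 of 3 libraries in each unit, and flipping the signs of the log2 ratios (exact permutation, two-sided) gave p = 0.25, the smallest that 3 libraries allow.

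**Figure D1:**
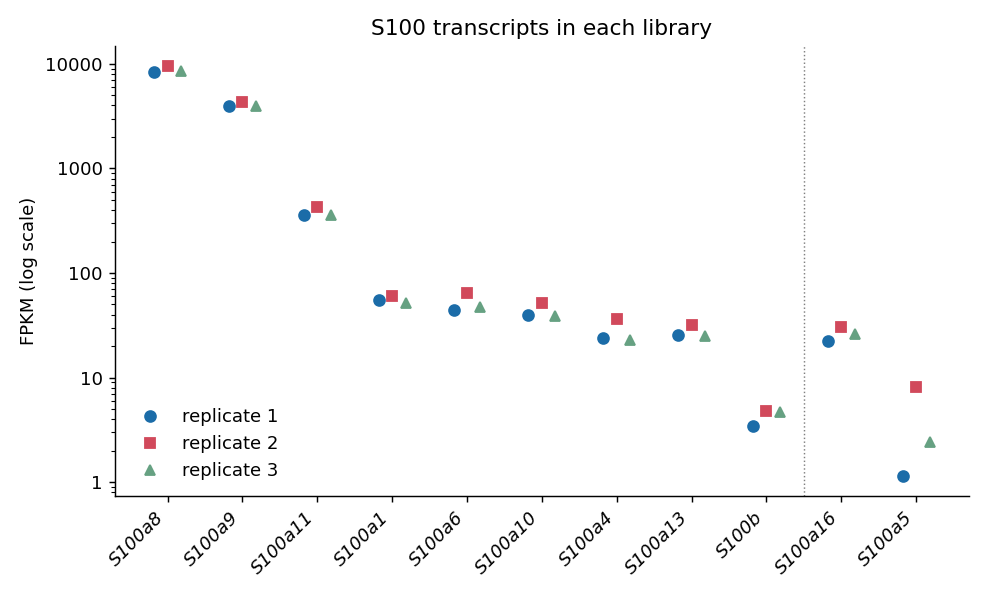
FPKM (vertical axis, log scale) of the 9 members and, right of the dotted line, of the family genes S100a16 and S100a5; each symbol is 1 library, with circles for replicate 1, squares for replicate 2 and triangles for replicate 3. S100a8 lies between 8435 and 9453 FPKM and S100b between 3.41 and 4.76, and replicate 2 is the highest library for each of the 9 members.

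S100a11, which binds annexin A1, was the third member at 360, 428 and 358 FPKM. Its highest library was far under the lowest of S100a9, which exceeded it 10.7 ± 0.54 times. S100a10, known as p11 and the obligate partner of annexin A2, was at 39.4, 52.2 and 39.0 FPKM. S100a11 exceeded S100a10 by 8.84 ± 0.55 times in FPKM and 5.34 ± 0.34 times in CPM, with no overlap of the libraries.

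S100a6, a binding partner of the Cacybp and Sugt1 proteins, was at 44.2, 63.8 and 47.7 FPKM, and S100a4, which binds the heavy chain of non-muscle myosin, at 23.9, 36.5 and 22.6 FPKM. For each, replicate 2 stood apart from the other libraries. S100a1, best known from heart muscle, was at 54.8, 60.7 and 51.5 FPKM. S100a13, which takes part in the unconventional release of Fgf1 and Il1a, was at 25.4, 31.5 and 24.9 FPKM. S100a1 exceeded its head-to-head neighbour S100a13 by 2.05 ± 0.11 times in FPKM and by 1.63 ± 0.092 times per kb of annotated exon, in 3 of 3 libraries either way. S100b was at 3.41, 4.76 and 4.69 FPKM from 81, 103 and 106 counts, and unlike the other members it had replicate 1 apart and replicates 2 and 3 together. In CPM S100a4 stood at 1.03 ± 0.23 times S100b, above it in replicates 1 and 2 and below it in replicate 3.

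The members were ordered by mean FPKM over these same libraries. Directions in FPKM thus partly follow from the sorting and are no independent support for the order. Of the 8 neighbouring pairs in that order, 6 had the same direction in 3 of 3 libraries. The exceptions were S100a1 over S100a6, with a log2 ratio of 0.12 ± 0.19, and S100a4 over S100a13, with a log2 ratio of -0.0043 ± 0.19; these neighbours did not differ beyond their spread. The exact sign-flip permutation test gave p = 0.25 for the 6 pairs (0.333 adjusted over the 8 pairs), 0.5 for S100a1 and S100a6 (0.571 adjusted) and 1.0 for S100a4 and S100a13 (1.0 adjusted), so no pair could pass a threshold of 0.05. Per kb of annotated exon S100a6 came before S100a1 (log2 ratio -0.05 ± 0.19) and S100a13 before S100a4 in 3 of 3 libraries (log2 ratio -0.71 ± 0.18). In CPM S100a6 lay above S100a1 and S100a13 above S100a4 in 3 of 3 libraries.

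The unit also set where the members stood among all genes. S100a8 was at rank 2 in FPKM and rank 90 in CPM, S100a9 at 8 and 93, and S100a11 at 196 and 2702. S100a1 moved from 1481 to 7639, S100a6 from 1625 to 7019 and S100a10 from 1947 to 8064. S100a4 moved from 3163 to 10443 and S100a13 from 3216 to 8940. S100b, with the longest effective length of the members at 1381 nt, moved from 9473 to 10488. All 9 ranked lower in CPM than in FPKM, and the share of all genes that did so was not determined. Per kb of annotated exon, which could be set for 19879 of the genes, S100a8 and S100a9 were adjacent at ranks 12 and 13.

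**Figure D2:**
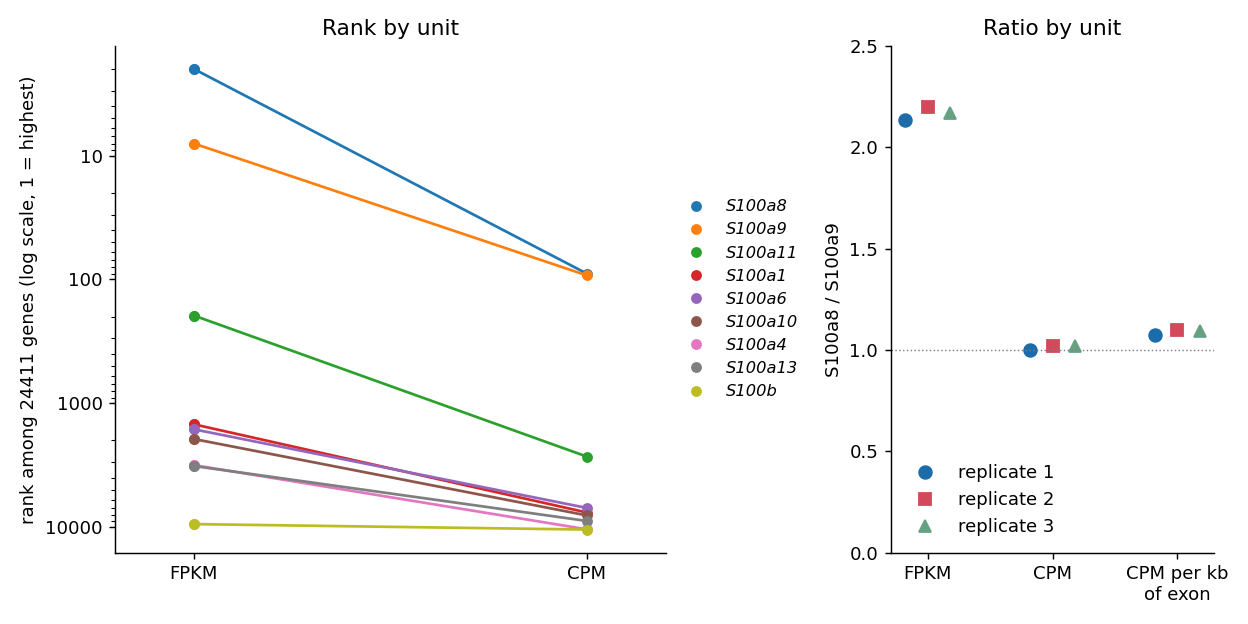
Left, rank of each member among 24411 genes by mean FPKM and by mean CPM (vertical log axis, rank 1 at the top); right, the S100a8 to S100a9 ratio in each library by FPKM, CPM and CPM per kb of annotated exon, with a dotted line at equality. S100a8 falls from rank 2 to rank 90 and meets S100a9 at 93, and the ratio falls from 2.17 to 1.01 in CPM and 1.09 per kb of exon.

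The remaining family genes, apart from S100a16, were low or had no reads. S100a16, an EF-hand protein expressed in many tissues, was at 22.6, 30.6 and 26.3 FPKM, a level like that of S100a13 and above S100b. In mean CPM S100a16 stood higher in the order, at 20.7 between S100a6 at 22.7 and S100a1 at 18.6, though below S100a1 in replicate 1. S100a5, which lies between S100a4 and S100a6, had 3, 19 and 6 counts (1.15, 8.08 and 2.41 FPKM), so its mean rests on replicate 2. S100a3 had 0, 4 and 0 counts. S100a2, S100a7a, S100a14, S100g and S100z had 0 counts in every library, which allows up to 0.175, 0.191 and 0.183 CPM in replicates 1, 2 and 3 (3 counts; counting error only).

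Replicate 2 was the highest library for 9 of 9 members in FPKM and in CPM, as it was in CPM for 35.4% of the 11680 genes detected. A chi-square test asked whether the 3 libraries hold a gene at 1 share of their TMM-normalised size, with counting error as the only variance. It called 6 of the 9 members at a Benjamini-Hochberg adjusted p under 0.05 over 13246 genes tested, against 41.4% of all genes. The test compares libraries, not conditions. The 6 were S100a4, S100a6, S100a8, S100a9, S100a10 and S100a11. S100a8 had 952, 1047 and 961 CPM, and its adjusted p of 5.783e-19 in this chi-square test goes with a log2 difference of replicate 2 from the mean of the other libraries of only 0.13. S100a4 had the widest such difference, 0.63, on 81 to 124 counts (adjusted p = 0.003811, chi-square test). The difference was 0.47 for S100a6, 0.41 for S100a10, 0.32 for S100a13, 0.25 for S100b, 0.24 for S100a11, 0.19 for S100a1 and 0.12 for S100a9.

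Transcript length moved with the same contrast. Over all genes with a mean of at least 20 counts, the median log2 difference of replicate 2 was 0.11 for 15 genes with effective lengths up to 125 nt, 0.23 from 125 to 250 nt, 0.16 from 250 to 500 nt, 0.13 from 500 to 1000 nt and -0.07 above 4000 nt. Effective lengths were also 2.44 nt shorter in replicate 2 than in replicate 1 (median of 3931 genes) and 0.076 nt shorter in replicate 3. S100a8, S100a9, S100a1 and S100a11 lay within the quartiles of their length class, and S100a4, S100a6, S100a10, S100a13 and S100b lay above the upper quartile of theirs. Library sizes were also set within 20 bins of effective length with similar numbers of genes, which are not the classes above. With this alternative, chosen after the values were seen, 3 members were called, S100a6, S100a8 and S100a9, against 36.1% of all genes. Without replicate 2 the chi-square test called 0 of 9 members, against 18.9% of all genes. When the test allowed for the spread that genes of like abundance share (negative binomial variance with the edgeR trended dispersion), it called 0 of 9 and 0.113% of all genes. That dispersion was estimated from these same 3 libraries, so their differences enter the variance. The few calls thus do not show the libraries to be alike. The part of length or of any cause in the higher values of replicate 2 was not tested further. The tagwise biological coefficient of variation (edgeR) was 5.12% for S100a8 and 5.05% for S100a9, and 17.2% for S100a4. The trend for their abundance was 5.10%, 5.10% and 16.3%. With 3 libraries the tagwise estimate is drawn strongly toward the trend by the method, so its nearness says little about these genes.

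**Figure D3:**
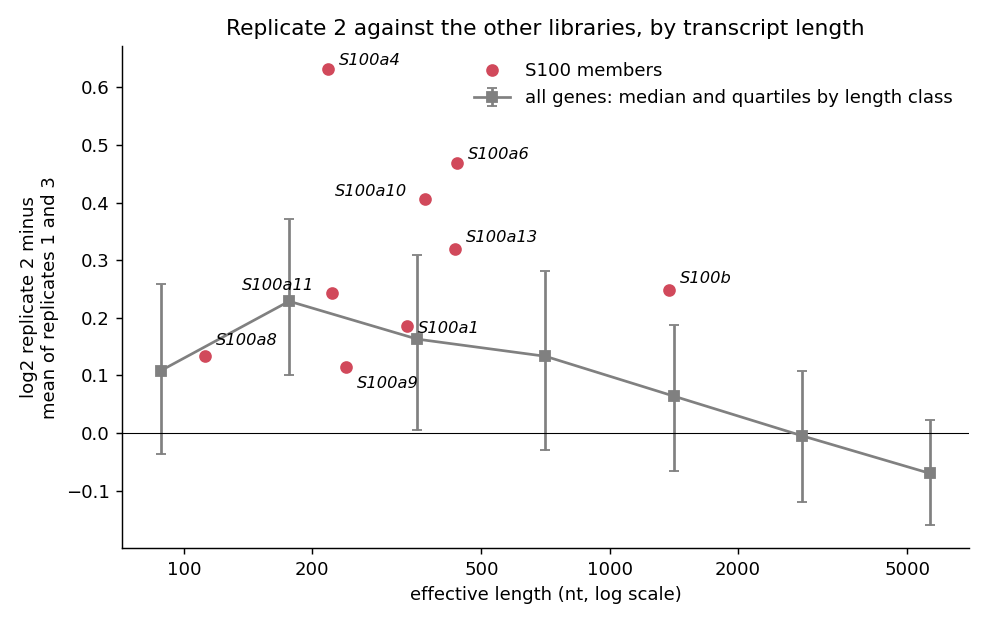
Log2 difference of replicate 2 from the mean of replicates 1 and 3 (TMM-normalised counts, vertical axis) against effective length in nt (log axis); red circles are the 9 members, and grey squares with bars are the median and quartiles of all genes in 7 length classes. All members lie above 0, from 0.12 for S100a9 to 0.63 for S100a4, and the medians of all genes fall from 0.23 in the class of 125 to 250 nt to -0.07 above 4000 nt.

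S100a8 and S100a9 are defining transcripts of neutrophils, and other neutrophil genes were present in each library. All 14 measured neutrophil markers were detected, none was at 0, and their summed level was 2094, 2175 and 2122 CPM in replicates 1, 2 and 3. The highest were Ngp, a secondary granule protein, at 592 ± 5.75 FPKM, Lcn2, an iron-carrier-binding granule protein, at 424 ± 15.1 FPKM, and Retnlg at 402 ± 46.4 FPKM. The lowest was Ctsg, the primary granule protease cathepsin G, at 5.26 ± 0.74 FPKM. S100a8 exceeded Ngp by 14.9 ± 1.01 times in FPKM, 4.76 ± 0.28 times per kb of annotated exon and 1.90 ± 0.11 times in CPM. For Lcn2 these ratios were 20.8 ± 0.90, 10.4 ± 0.38 and 4.07 ± 0.15. S100a8 stood at 5.47 ± 0.33 times the microglial receptor gene P2ry12 in FPKM and 1.56 ± 0.076 times per kb of annotated exon, but below it in CPM, at 0.298 ± 0.015 times. In bulk samples, few cells with much of a transcript and many cells with little of it cannot be told apart. The part of neutrophil RNA in the level of S100a8 and S100a9 was not tested.

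**Figure D4:**
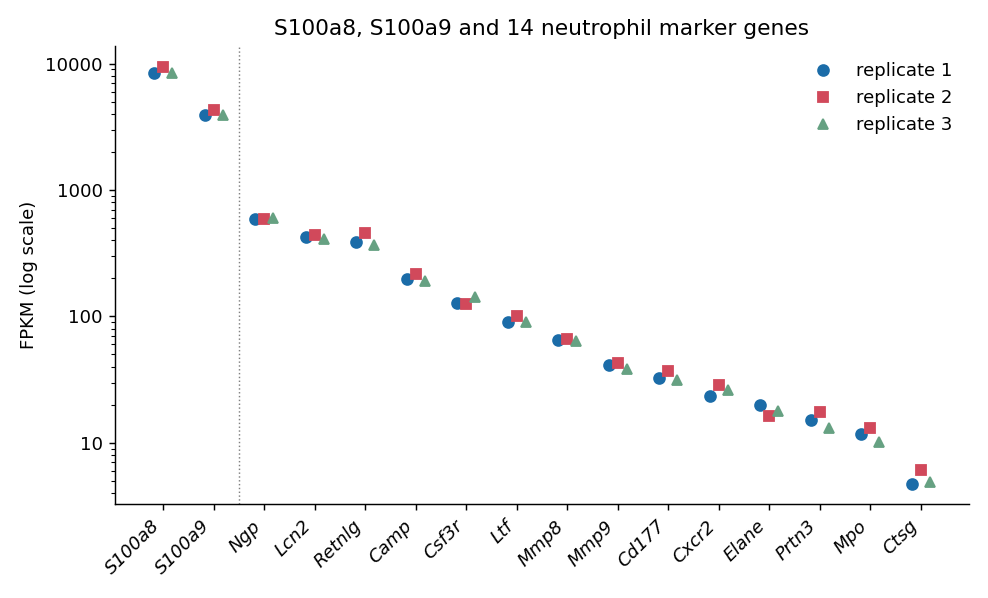
FPKM (vertical axis, log scale) in each library of S100a8 and S100a9, left of the dotted line, and of the 14 measured neutrophil markers in order of mean level; circles, squares and triangles are replicates 1, 2 and 3. Every marker was detected, from Ngp at 592 down to Ctsg at 5.26 FPKM, and all lie under S100a9.

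Markers of other cells that can carry members of the family were detected too. The 9 monocyte genes, all detected, summed to 1345, 1443 and 1377 CPM in replicates 1, 2 and 3 and were led by Chil3 at 335 ± 13.3 FPKM. The 9 genes of border-associated macrophages, all detected, summed to 1398, 1371 and 1326 CPM and were led by Stab1 at 82.3 ± 2.95 FPKM. For S100b the lists of interest are those of glia. All 10 astrocyte genes were detected, at 822, 863 and 752 CPM in sum, with Slc1a3, a glutamate transporter, highest at 101 ± 1.72 FPKM and Sox9 lowest at 2.42 ± 0.41 FPKM. All 10 oligodendrocyte genes were detected, at 936, 977 and 821 CPM in sum, among them Mal, a myelin protein, at 86.7 ± 2.78 FPKM. S100b stood at 0.043 ± 0.0078 times Slc1a3, the highest astrocyte gene, in FPKM and at 0.015 ± 0.0027 times in CPM. Against Sox9, the lowest astrocyte gene, S100b was higher in each library in FPKM and lower in each in CPM. Of the other lists, all 10 endothelial and all 9 choroid plexus and ependymal genes were detected. They were led by Ly6c1 at 1038 ± 66.6 and Ttr at 5690.0 ± 404 FPKM. The endothelial genes summed to 3091, 3258 and 3195 CPM in replicates 1, 2 and 3. The choroid plexus and ependymal genes summed to 5368.5, 5623.6 and 6161.1 CPM, of which Ttr alone held 5011, 5271 and 5762. Both sums lay above that of the neutrophil genes in each library. Detected too were 8 of 10 mural and fibroblast, 3 of 10 neuronal (Nefl at 0) and 3 of 10 lymphocyte genes. The part of these cells in the levels of the members, S100a8 and S100a9 included, was not tested.

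Receptors through which extracellular S100 proteins signal were mostly expressed. Of 11 receptor and co-receptor genes 10 were detected (47.8% of all genes), with a median of log2(FPKM + 1) of 5.70 ± 0.12. Bsg, which encodes the S100a9-binding surface protein basigin, was highest at 897 ± 54.6 FPKM, followed by Cd14 at 438 ± 29.1, Itgam at 331 ± 4.95 and Itgb2 at 204 ± 3.38 FPKM. Tlr4, the receptor for calprotectin, was at 38.0, 45.2 and 40.2 FPKM, its adaptor Myd88 at 51.0 ± 4.16 and its co-receptor Ly96 at 25.8 ± 6.90 FPKM. Ager, which encodes RAGE, the classical receptor for S100b, was at 1.32, 1.08 and 1.83 FPKM, near the detection limit in every library. Gp1ba, at 1.47, 0.96 and 1.67 FPKM, missed it in replicate 2.

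Intracellular partners were detected for 17 of 18 genes, with a median of 5.04 ± 0.05. Anxa1, the partner of S100a11, was at 165 ± 13.5 FPKM and Anxa2, the partner of S100a10, at 86.5 ± 7.93 FPKM. S100a11 stood above Anxa1 in each library in FPKM, at 2.02, 2.57 and 2.36 times, and per kb of annotated exon, at 1.72 ± 0.20 times, but below it in each in CPM, at 0.464 ± 0.053 times. S100a10 stood below Anxa2 in each library, at 0.462, 0.549 and 0.492 times its FPKM and 0.169 ± 0.014 times its CPM. Ahnak, a giant scaffold that the S100a10 and annexin A2 complex holds at the membrane, was at 20.9 ± 0.68 FPKM. Myh9, the myosin heavy chain bound by S100a4, was at 63.6 ± 0.57 FPKM, and the S100a6 partners Cacybp and Sugt1 were at 30.8 ± 0.39 and 38.6 ± 1.19 FPKM. Of the cargo of S100a13, Il1a was at 109 ± 11.5 and Fgf1 at 3.33 ± 0.34 FPKM. Syt1, another component of that release complex and a neuronal gene, was the partner not detected, at 0.19 ± 0.11 FPKM. Capza2 and Capza1, actin-capping subunits that S100b can bind, were at 367 ± 10.8 and 101 ± 2.33 FPKM.

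Among the genes most like S100a8 by the largest log2(FPKM + 1) difference over the 3 libraries were Tmsb4x (0.34) and Ctsd (0.61), and those most like S100b were Tarm1 (0.06), Oasl1 (0.07) and Triqk (0.08). This measure of likeness mostly reflects the level itself, and over 3 libraries it holds little information on a shared pattern.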

How the data were processed

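RNA sequencing of total RNA gave 3 libraries of 1 group. The submitters' processing notes list the aligner STAR (2.7.9a), the quantifier RSEM, DESeq2, and the builds GRCm38 and mm10; settings, annotation, library preparation and strandedness are not given in the sources used here, so overlapping genes may share reads. The authors deposited estimated counts per gene (not normalised, 4.07% of values not whole) and FPKM per gene (divided by library size and effective length). There were 0 columns of other samples. The 12 names turned into dates were joined by date.

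The members and gene lists were chosen with earlier results of these data known. CPM used the library totals, and effective lengths came from count, FPKM and total. Exon lengths were merged exons of protein-coding transcripts (GENCODE M21). Lists were summarised with a pseudocount of 1. Counts were rounded, filtered with edgeR 4.0.16 (R 4.3.3) and TMM-normalised for the chi-square test of homogeneity. Dispersions used an intercept alone. On simulated data, few false calls were required of the chi-square test only where counting error was the sole variance. The edgeR common biological coefficient of variation here was 8.27%, so the simulated data do not vouch for its calls. Alternatives included DESeq2 1.42.0 size factors, other units and leaving out each replicate. Named were all members and S100 genes, genes of the partner and receptor lists, the 3 highest and the lowest of each marker list, and the 3 genes most like S100a8 and S100b. Some genes that this rule names are not reported here. Ly6g and S100a7l2 were not matched. Start regions and miRNA sequences are from RefSeq, GRCm38.p6.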

Additional observations from a re-analysis of the deposited data

How the results depend on the processing

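All 9 members were detected in CPM, TPM, per kb of annotated exon and without each replicate in turn. The count of neighbouring pairs that ran in every library the way of the mean FPKM order was 6 in FPKM, CPM and per kb of exon and with S100a16 added (added after the values were seen), and 6 to 7 without each replicate. S100a1 over S100a6 reversed from a log2 ratio of 0.12 in FPKM to -0.27 in CPM and -0.053 per kb of exon. S100a4 over S100a13 reversed from -0.0043 to 0.037 without replicate 1 and 0.062 without replicate 3, and was -0.11 without replicate 2; it was -0.998 in CPM and -0.71 per kb of exon. The log2 ratio of S100a8 to S100a9 was 0.02 in CPM and 0.12 per kb of exon, against 1.12 in FPKM, and 1.11 to 1.13 without each replicate. The 5485 genes called by the homogeneity test became 15 with a negative binomial variance, itself estimated from these libraries. Without each replicate they became 2499 to 3788, the lowest without replicate 2. The 6 members called became 0 with that variance and 3 with library sizes by length; without each replicate they were 0 to 6, the 0 being without replicate 2. DESeq2 size factors, library totals and no filter gave 5483, 5505 and 6415 genes and 6 members each. The share of counts was 0.228% without the 10 most abundant genes in the denominator (0.213% with them) and 0.206 to 0.216% without each replicate. In CPM the list medians were 7.20 for receptors, 6.59 for partners and 6.63 for neutrophil genes, against 5.70, 5.04 and 5.72 in FPKM, while that of the members fell from 5.68 to 4.29; for those 3 lists other pseudocounts and a filter moved them by less than their SD, and without each replicate they were 5.64 to 5.76, 5.02 to 5.07 and 5.69 to 5.75. The cause of these changes was not tested, beyond the division by length that separates the units. No paired analysis was possible because there is only 1 group. Depth limits S100a3, S100a5 and the genes without counts most.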

Other observations

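Among other EF-hand calcium sensors, all 10 genes were detected, with a median of log2(FPKM + 1) of 6.65 ± 0.03 (SD, n = 3). Calm2, a calmodulin gene, was at 495 ± 32.0 FPKM, Efhd2 at 252 ± 3.71 and Lcp1, an actin-bundling protein of leukocytes, at 238 ± 9.50 FPKM. Aif1, which encodes the microglial marker Iba1, was at 133, 125 and 136 FPKM in replicates 1, 2 and 3. S100a11 exceeded Aif1 by 2.72, 3.42 and 2.64 times in FPKM and by 2.46 ± 0.35 times per kb of annotated exon, but in CPM it stood at 1.02, 1.28 and 0.992 times Aif1. S100a8 exceeded Aif1 by 67.3 ± 7.11 times in FPKM, 29.9 ± 2.89 times per kb of annotated exon and 12.7 ± 1.23 times in CPM.

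All 6 genes of the phagocyte NADPH oxidase, to which calprotectin is known to deliver arachidonic acid, were detected, with a median of 6.18 ± 0.08. Cyba, a membrane subunit, was at 411 ± 25.1 FPKM, the cytosolic subunit Ncf1 at 223 ± 11.5 FPKM, and Cybb, the catalytic subunit, was lowest at 33.2 ± 1.79 FPKM.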
